A study of Mus musculus with 18 samples.

Results

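A set of 9 genes of the Polycomb repressive complexes were followed through polysome gradients of mouse embryonic stem cells (ESCs) with and without the RNA helicase DDX6. They were chosen by symbol and comprised Ezh2, Eed, Suz12, Jarid2, Mtf2, Rnf2, Ring1, Pcgf6 and Kdm2b. Each of the 9 matched exactly 1 gene identifier among the 51467 genes of the count table, and all 9 passed the filter on low counts, which kept 12705 genes. The cells were V6.5 ESCs, an established mouse line, grown in serum, LIF and 2i. They were wild-type (WT), or they were clones of the same parental line in which CRISPR-Cas9 had disrupted Ddx6 (Ddx6 KO). Every culture, WT included, received cycloheximide at 100 ug/ml for 2 min, which holds ribosomes on their mRNA, before the lysate was spun through sucrose. Each of 3 WT and 3 KO gradients gave a monosome, a low polysome (2 to 4 ribosomes) and a high polysome (4 or more ribosomes) library, 18 libraries in 6 groups of 3. Clone 1 supplied KO gradient 1 and clone 2 supplied gradients 2 and 3, so that the KO group stands for 2 clones, and a clone with 1 gradient cannot be told apart from a gradient. The labels do not say whether gradients came from separate cultures, and p-values therefore measure only the spread between these gradients.

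Polycomb proteins keep developmental genes silent in ESCs through 2 enzyme complexes that modify histones. Polycomb repressive complex 2 (PRC2) methylates histone H3 at lysine 27 through EZH2, which needs EED and SUZ12 for activity, while JARID2 and MTF2 help bring the complex to CpG-rich promoters. Polycomb repressive complex 1 (PRC1) attaches ubiquitin to histone H2A through the RING finger ligases RNF2 (also called RING1B) and RING1. Variant PRC1 complexes carry other partners, among them PCGF6 and the CpG-binding protein KDM2B. DDX6 is known to act in the repression of translation and in mRNA turnover, including repression by microRNAs (miRNAs), and the comparison asked whether its loss shifts Polycomb mRNAs between ribosome fractions or changes how much of them is there.

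In Gencode M21 on GRCm38, the assembly also called mm10, the PRC2 core genes lie as follows, with Ezh2 (ENSMUSG00000029687.16) at chr6:47530139-47595341 on the minus strand, Eed (ENSMUSG00000030619.9) at chr7:89954654-89980983 on the minus strand and Suz12 (ENSMUSG00000017548.15) at chr11:79993106-80034123 on the plus strand. Of the accessory genes the annotation places Jarid2 (ENSMUSG00000038518.15) at chr13:44729474-44921643 on the plus strand and Mtf2 (ENSMUSG00000029267.17) at chr5:108065674-108109004 on the plus strand. The ligase genes are Rnf2 (ENSMUSG00000026484.13) at chr1:151458004-151500955 on the minus strand and Ring1 (ENSMUSG00000024325.8) at chr17:34020792-34024680 on the minus strand. The variant PRC1 genes are Pcgf6 (ENSMUSG00000025050.7) at chr19:47033617-47050906 on the minus strand and Kdm2b (ENSMUSG00000029475.17) at chr5:122870665-122989823 on the minus strand. All 9 are protein coding genes, and counts cover the exons of each.

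Total gene counts were 2543617 to 11474550 per library, and a level is given in CPM, the counts of a gene scaled to the size of its library after TMM normalisation, and so relative to all other mRNAs of the same fraction. Because reads mark the 3′ end of a transcript they were not divided by length, and levels were compared between libraries and not between genes. Ddx6 itself lay between 143 and 212 CPM in the 9 WT libraries and between 9.68 and 82.7 CPM in the 9 KO libraries. The 3 libraries of clone 1 held 57.5, 82.7 and 55.3 CPM, above the 6 of clone 2. The reads fall in the 3′ end, outside the edited exon, so that this decrease goes with the labels but does not test the edit. All 9 ESC markers passed the filter, with summed levels of 2914 to 6474 CPM in WT and 3024 to 4807 CPM in KO. Of the fibroblast markers 4 of 6 stayed under 1 CPM in every library, and their sum was 3.95 to 10.4 CPM in WT and 5.79 to 10.97 CPM in KO. Markers of primed epiblast fell in KO, from 103 to 149 CPM in WT to 32.7 to 80.4 CPM, with 3 of 3 tested genes lower and Fgf5 at 0 in all libraries. Summed primitive endoderm markers were 11.55 to 29.9 and 15.1 to 50.3 CPM, and summed trophoblast markers 84.5 to 169 and 101 to 233 CPM, in WT and KO. Most of the trophoblast sum was Tfap2c. Krt7 lay at 0.10 to 1.99 CPM in WT and 4.62 to 16.3 CPM in KO, without overlap. Cdx2 lay at 0 to 0.28 and 1.13 to 5.25 CPM, also without overlap. Eomes went the other way, with high polysome means of 5.66 CPM in WT and 3.95 CPM in KO. Elf5 and Hand1 stayed under 1 CPM in every library. The part of cells with such markers in the changes given here was not tested. In these bulk libraries fewer cells with an mRNA and less of it per cell cannot be told apart.

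Because DDX6 is a partner of miRNA repression, the mRNAs were first searched for sites of the ESC-enriched miRNAs that share the seed of miR-294. The mature miRNA, on chromosome 7 (chr7:3220691-3220712, plus strand, GRCm38.p6, from RefSeq), is shown with bases 2 to 8, its seed, in capitals. The sequences under it are the 8mer matches to that seed in other Polycomb mRNAs, with the 8mer AGCACTTA in capitals and the 7mer matches left out, each within a 3′ UTR exon of Gencode M21 on GRCm38.
mmu-miR-294-3p: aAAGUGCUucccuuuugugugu
Phc3 (chr3:30904821-30904850, minus strand): ctttcttattactaAGCACTTAagaacttt
Mga (chr2:119965436-119965465, plus strand): acacttgtaattccAGCACTTAgaagacta
Mga (chr2:119966738-119966767, plus strand): ctagacaggtcatcAGCACTTAacctttcc
Foxk1 (chr5:142460989-142461018, plus strand): aaccccatatgtgaAGCACTTAccaccatt
None of the 9 genes held this 8mer or either of its 7mers (AGCACTT and GCACTTA, sense strand, each lying inside the 8mer) in its longest annotated 3′ UTR. Those UTRs run from 283 nt in Eed to 2059 nt in Mtf2, and of 11566 genes with a 3′ UTR in that range 12.7% held a site. Of all 21899 genes searched 615 held an 8mer and 3078 a 7mer only, 16.9% together. Among 40 other Polycomb genes 3 held an 8mer (Phc3, Mga and Foxk1) and 11 a 7mer only. A match is a run of letters and not a shown binding site, and its absence says nothing of other miRNAs.

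In WT cells 4 of the Polycomb mRNAs exceeded their monosome level in the high polysome. All 9 had a positive log2 difference between high polysome and monosome, with a median of 0.33 against -0.018 for all genes. The share of all genes with a positive difference was not counted. With the coding length trend removed 2 of the 9 turned negative, Pcgf6 at -0.25 (limma adjusted p = 0.173) and Ring1 at -0.064 (limma adjusted p = 0.893). The 4 were Ezh2, Eed, Jarid2 and Rnf2, at an adjusted p under 0.05 in limma, where 28.9% of all genes were, and none was lower, where 32.2% were. The ratio of high polysome to monosome is called the translation level here.

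Rnf2, an H2A ubiquitin ligase, had the largest difference of the 9. Its level was 49.0, 47.9 and 42.7 CPM in the 3 WT monosomes and 105, 131 and 120 CPM in the high polysomes of the same gradients, with no overlap. The difference was 1.35 on the log2 scale (SE 0.14, limma adjusted p = 4.29e-08), above that of 94.2% of genes. Jarid2 went from 307, 351 and 342 CPM to 639, 653 and 740 CPM, a difference of 1.02 (SE 0.14, limma adjusted p = 1.89e-06). Eed, the subunit that reads the methyl mark, went from 191, 207 and 204 CPM to 308, 396 and 340 CPM, a difference of 0.78 (SE 0.14, limma adjusted p = 5.13e-05).

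Ezh2, the methyltransferase, rose less, from 122, 124 and 132 CPM to 154, 216 and 194 CPM. Its difference was 0.56 (SE 0.15, limma adjusted p = 0.00234), and without WT gradient 2 it was 0.44 (limma adjusted p = 0.0513). The other 5 genes gave 0.31 for Suz12, 0.33 for Mtf2, 0.22 for Kdm2b, 0.17 for Ring1 and 0.03 for Pcgf6, with limma adjusted p from 0.0755 to 0.896. Mtf2 and Suz12 passed the threshold without WT gradient 1, at 0.40 (limma adjusted p = 0.0359) and 0.43 (limma adjusted p = 0.0394). Blocking on the gradient gave 0.33 for Mtf2 (limma adjusted p = 0.0222). Mtf2 was called under 6 of the 14 alternatives in all and Suz12 under 3, among them for both the fits without the filter and with only the compared groups.

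The low polysome divided the genes differently. Mtf2, a PRC2 recruiter, was highest there, at 398, 484 and 530 CPM against 232, 338 and 302 CPM in the monosome (0.70, SE 0.16, limma adjusted p = 0.00117). Kdm2b, at 42.1, 43.7 and 64.4 CPM against 29.9, 39.3 and 30.9 CPM, was also higher (0.56, SE 0.19, limma adjusted p = 0.0205). These were 2 of 9 genes, where 20.4% of all genes were higher. The Kdm2b call rested on WT gradient 3, without which the difference was 0.29 (limma adjusted p = 0.321), and removing the coding length trend gave 0.31 (limma adjusted p = 0.156).

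Pcgf6 and Ring1 were the 2 genes lower in the low polysome, where 22.8% of all genes were. Pcgf6, a subunit of variant PRC1, fell from 105, 105 and 100 CPM to 59.1, 66.2 and 53.3 CPM (-0.80, SE 0.17, limma adjusted p = 0.000633) and was back at 94.3, 121 and 101 CPM in the high polysome. Ring1 was scarce, with 11 to 78 counts in any library, and went from 5.58, 3.95 and 4.14 CPM to 1.59, 1.55 and 2.16 CPM (-1.31, SE 0.45, limma adjusted p = 0.0234). Leaving out WT gradient 1, 2 or 3 ended the Ring1 call, at -1.12, -1.32 and -1.51 (limma adjusted p = 0.131, 0.0878 and 0.0625). Ezh2, Eed, Suz12 and Rnf2 differed by -0.09 to 0.12 between the 2 fractions. Jarid2 was at 0.33 (limma adjusted p = 0.0601), and blocking on the gradient gave 0.33 (limma adjusted p = 0.0355).

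**Figure D1:**
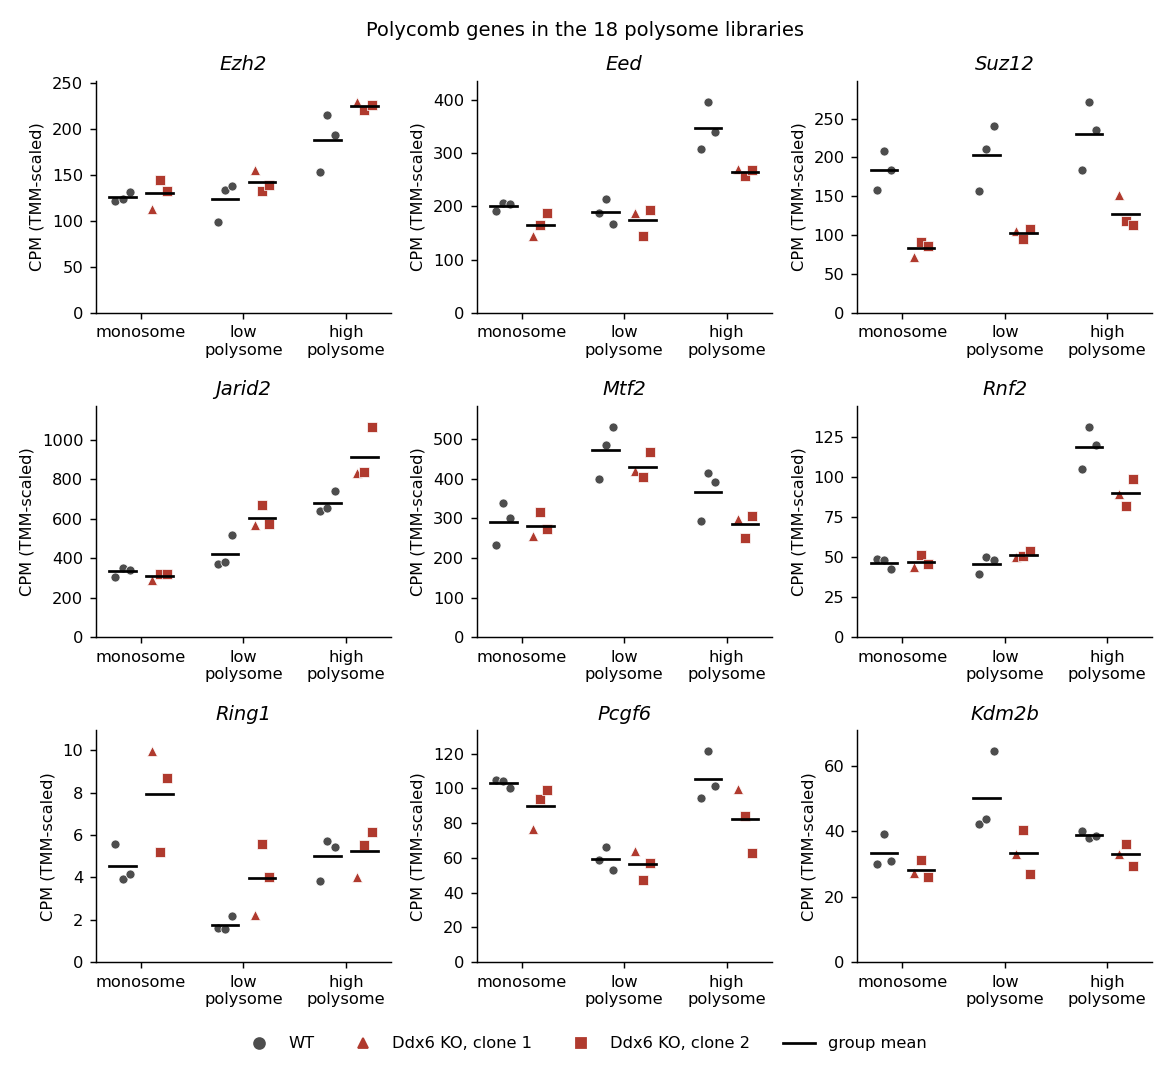
Level of each gene (TMM-scaled CPM, linear axis from 0, a separate scale per gene) in the libraries of the 3 gradient fractions, ordered from monosome to high polysome. Circles are the 3 WT gradients, triangles KO clone 1, squares the 2 gradients of KO clone 2, and bars the group means; Suz12 lies lower in KO than in WT in all 3 fractions, and Jarid2 lies higher in the low and high polysome.

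Loss of DDX6 went with less Suz12 and more Jarid2 mRNA. Averaged over the 3 fractions, 4 of the 9 genes were lower in KO (Suz12, Eed, Kdm2b and Pcgf6), where 31.5% of all genes were, and 2 were higher (Jarid2 and Ring1), where 30.6% were. The median change of the 9 was -0.17 on the log2 scale against -0.021 for all genes. The members did not move together, and within PRC2 the changes ran from -0.99 for Suz12 to 0.28 for Jarid2. This average weighs the fractions equally and leaves out RNA free of ribosomes, so it is not the whole-cell level.

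Suz12, without which PRC2 is not active, had the largest change of the 9 in the monosome, in the high polysome and over all fractions, and in the low polysome Ring1 changed further, upward. In the monosome it fell from 158, 209 and 184 CPM in WT to 71.3, 91.5 and 86.2 CPM in KO (-1.15, SE 0.17, limma adjusted p = 3.23e-05). It was the single member called there, where 20.1% of all genes were lower and 18.6% higher. In the low polysome it fell from 156, 211 and 241 CPM to 105, 94.5 and 107 CPM (-0.96, SE 0.17, limma adjusted p = 0.000108). In the high polysome it fell from 184, 271 and 235 CPM to 151, 118 and 113 CPM (-0.85, SE 0.17, limma adjusted p = 0.000352).

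The WT and KO libraries of Suz12 did not overlap in any fraction, and both clones lay below WT. The share of all genes whose levels separate in this way was not counted. A lack of overlap of levels, here or elsewhere in the text, is therefore only a description. Over all fractions the change was -0.99 (SE 0.099, limma adjusted p = 3.04e-08), a KO level of 0.504 times that of WT, and 7.30% of the genes tested had a lower value. The call held under all 14 alternatives.

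Eed, another PRC2 core gene, was lower in KO in the high polysome and over all fractions, by less than Suz12. Its level was 308, 396 and 340 CPM in the WT high polysome and 271, 258 and 268 CPM in KO, without overlap (-0.38, SE 0.13, limma adjusted p = 0.0245). Without WT gradient 2 this was -0.29 (limma adjusted p = 0.147), and without KO gradient 2 it was -0.36 (limma adjusted p = 0.0553). Over all fractions Eed changed by -0.26 (SE 0.079, limma adjusted p = 0.00697), and without WT gradient 2 by -0.19 (limma adjusted p = 0.0757).

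Ezh2, the third core gene, was not called in any fraction. All 3 KO high polysomes, at 229, 221 and 226 CPM, lay above those of WT at 154, 216 and 194 CPM without overlap, but the change of 0.28 missed the threshold (SE 0.14, limma adjusted p = 0.109). Over all fractions it was 0.18 (SE 0.082, limma adjusted p = 0.0671). Leaving out WT gradient 2 or 3 took it past the threshold, at 0.23 each (limma adjusted p = 0.0468 and 0.0489), and so did a block on the replicate number, at 0.18 (limma adjusted p = 0.0495).

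Jarid2, which recruits PRC2, was higher in KO in both polysome fractions, while its monosome change missed the threshold. The test of the difference between fractions is given with the translation level. Monosome levels were 307, 351 and 342 CPM in WT and 288, 322 and 318 CPM in KO, which overlap (-0.11, SE 0.14, limma adjusted p = 0.568). In the low polysome they were 371, 380 and 518 CPM in WT and 571, 671 and 574 CPM in KO (0.53, SE 0.14, limma adjusted p = 0.00306). In the high polysome they were 639, 653 and 740 CPM in WT and 830, 834 and 1065 CPM in KO (0.42, SE 0.13, limma adjusted p = 0.0145).

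KO exceeded every WT library in both polysome fractions, in clone 1 and in clone 2. The high polysome call ended without WT gradient 1 (0.31, limma adjusted p = 0.111), WT gradient 2 (0.39, limma adjusted p = 0.0638) or KO gradient 3 (0.28, limma adjusted p = 0.156). Removing the coding length trend also ended it (0.15, limma adjusted p = 0.286). Over all fractions Jarid2 rose by 0.28 (SE 0.078, limma adjusted p = 0.00404), and without WT gradient 1 by 0.20 (limma adjusted p = 0.0581).

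Mtf2 was the other accessory gene and did not rise with Jarid2. Its high polysome levels were 293, 413 and 392 CPM in WT and 299, 250 and 305 CPM in KO (-0.35, SE 0.15, limma adjusted p = 0.0675), and the groups overlapped through WT gradient 1. Without that gradient the change was -0.57 (limma adjusted p = 0.00346) in the high polysome and -0.32 (limma adjusted p = 0.00214) over all fractions, where all libraries gave -0.17 (limma adjusted p = 0.102). A block on the replicate number gave -0.35 (limma adjusted p = 0.0384) in the high polysome, and DESeq2 gave -0.43 (adjusted p = 0.0208). In all 6 of 14 alternatives called Mtf2 lower there, including both other scalings.

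The ubiquitin ligase Rnf2 was lower in the KO high polysome. There it was 105, 131 and 120 CPM in WT and 89.0, 81.8 and 98.4 CPM in KO, without overlap (-0.40, SE 0.12, limma adjusted p = 0.0100). Its monosome level was 46.5 ± 3.36 CPM in WT and 46.9 ± 3.79 CPM in KO (mean ± SD, n = 3), and its low polysome level 45.8 ± 5.63 and 51.5 ± 1.86 CPM, neither past the threshold. The high polysome call ended without WT gradient 2 (-0.32, limma adjusted p = 0.0771) or KO gradient 2 (-0.33, limma adjusted p = 0.0612).

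Ring1, its paralog, was the only member whose fitted change in any fraction exceeded 1 upward. In the low polysome it was 1.59, 1.55 and 2.16 CPM in WT and 2.23, 5.59 and 4.03 CPM in KO (1.06, SE 0.41, limma adjusted p = 0.0389), on 11 to 46 counts per library. That call ended under 8 of the 14 alternatives, including each single omission of WT gradient 1, 2 or 3 or KO gradient 2 or 3 (0.82 to 1.21, limma adjusted p = 0.067 to 0.121). Monosome levels were 5.58, 3.95 and 4.14 CPM in WT and 9.95, 5.20 and 8.72 CPM in KO (0.77, SE 0.36, limma adjusted p = 0.0911), and without KO gradient 2 the change was 1.06 (limma adjusted p = 0.0163). Over all fractions Ring1 rose by 0.62 (SE 0.20, limma adjusted p = 0.0120), and without KO gradient 3 by 0.51 (limma adjusted p = 0.0757).

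In the low polysome, 2 of the 9 genes were lower in KO (Suz12 and Kdm2b), where 24.3% of all genes were, and 2 higher (Jarid2 and Ring1), where 23.4% were. In the high polysome 3 were lower (Suz12, Eed and Rnf2), where 21.1% of all genes were, and 1 was higher (Jarid2), where 25.3% were. With 9 genes these shares of members lie near those of all genes.

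Both variant PRC1 genes were lower in KO over all fractions. Kdm2b was 42.1, 43.7 and 64.4 CPM in the WT low polysome and 32.9, 40.4 and 27 CPM in KO, without overlap (-0.59, SE 0.17, limma adjusted p = 0.00650). Without WT gradient 3 this was -0.39 (limma adjusted p = 0.0715), and without KO gradient 3 it was -0.46 (limma adjusted p = 0.0592). Over all fractions Kdm2b changed by -0.36 (SE 0.10, limma adjusted p = 0.00445) and kept its call under all 14 alternatives. In Gencode M21 124 bases of a Kdm2b exon lie in Gm44574 on the same strand, and reads in those bases could come from either gene. How such reads were treated in the deposited counts, made on Gencode M14, was not checked.

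Pcgf6 changed by -0.22 over all fractions (SE 0.094, limma adjusted p = 0.0439). That call was lost under 6 of 14 alternatives, among them the omission of WT gradient 2 (-0.16, limma adjusted p = 0.224), KO gradient 2 (-0.21, limma adjusted p = 0.101) or KO gradient 3 (-0.21, limma adjusted p = 0.0705). In the high polysome Pcgf6 was 94.3, 121 and 101 CPM in WT and 99.9, 84.0 and 62.7 CPM in KO (-0.38, SE 0.16, limma adjusted p = 0.0515), with clone 1 inside the WT range and clone 2 below it. Without KO gradient 1 the change was -0.54 (limma adjusted p = 0.00756), and without WT gradient 1 it was -0.52 (limma adjusted p = 0.0304). DESeq2 gave -0.44 (adjusted p = 0.0225), and both other scalings also called it.

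**Figure D2:**
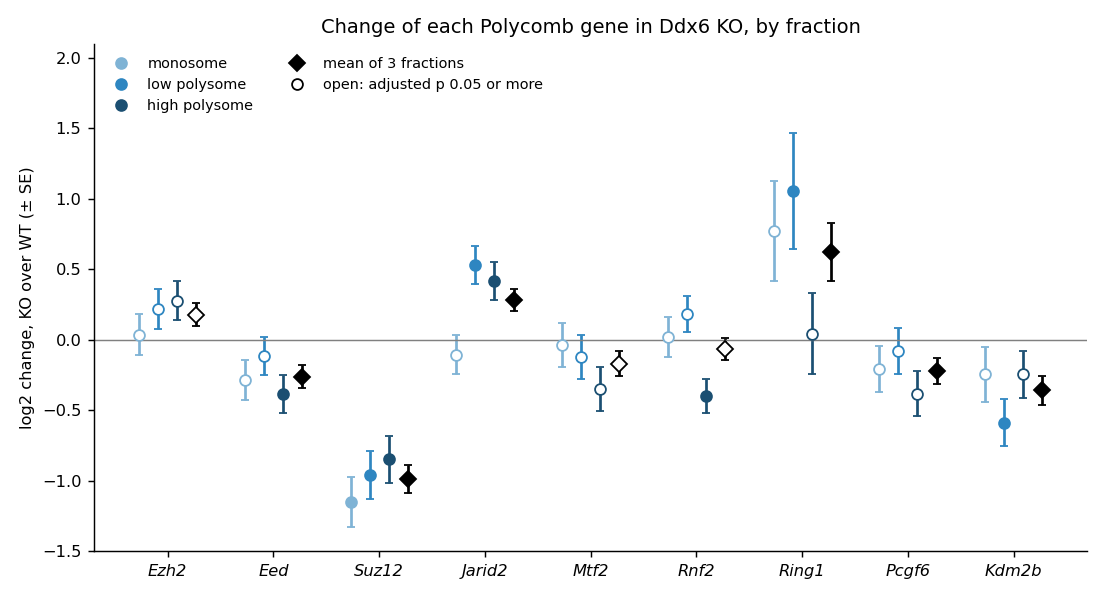
Log2 change of each gene in KO over WT with its standard error from limma, in each fraction (circles, light for monosome to dark for high polysome) and averaged over the 3 fractions (diamonds). Filled symbols have an adjusted p under 0.05; Suz12 is filled in every fraction, at -1.15, -0.96 and -0.85, and Jarid2 in the low and high polysome, at 0.53 and 0.42.

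None of the 9 genes changed its translation level past the threshold. The interaction term of limma, the KO difference between high polysome and monosome less the WT difference, called 0 of 9 genes, where it called 10.7% of all genes higher and 7.09% lower. Over all genes that balance turned with the scaling, from 1357 higher and 901 lower to 936 and 1386 with library size alone, 1157 and 1112 with DESeq2 size factors and 1250 and 1744 with only the compared groups fitted. The quasi-likelihood test of edgeR and DESeq2 also called 0. The smallest unadjusted p-values of the 9 in limma were 0.0125 for Jarid2 and 0.0351 for Rnf2 (adjusted p = 0.0618 and 0.120). The median of the 9 was -0.098 against 0.022 for all genes, with 3 values positive. Standard errors were 0.19 to 0.26 apart from Ring1 at 0.46. In simulated data 19 and 21 of 50 genes given a change of 1 up and down on the log2 scale were called. That simulation left 12505 of 12705 genes unchanged, while 10.7% and 7.09% of genes were called in the measured libraries. The adjustment of p-values therefore differed, and these counts do not give the power for the 9 genes.

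Jarid2 came closest. Its log2 translation level was 1.05, 0.90 and 1.11 for WT and 1.52, 1.37 and 1.74 for KO, without overlap and with clone 1 between the 2 gradients of clone 2. The difference of means was 0.52 (exact permutation p = 0.1, two-sided, the smallest that 3 against 3 can give). In limma it was 0.53 (SE 0.19, adjusted p = 0.0618), and with the gradient as a block 0.52 (adjusted p = 0.0400). The block was the only one of 14 alternatives that called it.

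The Jarid2 value moved with coding length. Its coding sequence is 3702 nt long, and the 1572 tested genes with 3000 nt or more had a median KO effect of 0.57, against -0.40 for the 3877 under 1000 nt. With the trend on coding length removed from each library the Jarid2 effect was 0.082 (SE 0.16, limma adjusted p = 0.789). Kdm2b, with the longest coding sequence of the 9 at 3927 nt, had an effect of -6.1e-05 (SE 0.26), and -0.46 with the trend removed (SE 0.23, limma adjusted p = 0.236). Suz12, at 2223 nt, went from 0.30 (SE 0.24, limma adjusted p = 0.403) to -0.0027 (SE 0.24).

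For Rnf2, with a coding sequence of 1008 nt, the translation level was 1.09, 1.44 and 1.48 in WT and 1.02, 0.67 and 1.09 in KO, which overlap narrowly. Its effect was -0.42 (SE 0.19, limma adjusted p = 0.120), and -0.26 with the trend removed (SE 0.19, limma adjusted p = 0.418). In KO cells the member with the highest translation level was Jarid2 and the next Rnf2, at means of 1.55 and 0.93, above 96.2% and 82.4% of genes. In WT the order was the reverse, with means of 1.02 and 1.34, above 87.7% and 94.4% of genes.

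Mtf2 was the second gene whose gradients did not overlap, at 0.34, 0.29 and 0.38 in WT and 0.23, -0.34 and 0.16 in KO (exact permutation p = 0.1, two-sided, the smallest possible). Over all genes 21.2% had every KO gradient above every WT gradient, as Jarid2 did, and 17.8% had every KO gradient below, as Mtf2 did. In limma the Mtf2 effect was -0.31 (SE 0.22, adjusted p = 0.340), and without KO gradient 2 it was -0.13 (adjusted p = 0.752).

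The remaining members overlapped between genotypes. Ezh2 was at 0.33, 0.79 and 0.56 in WT and 1.02, 0.61 and 0.77 in KO, and Eed at 0.69, 0.93 and 0.74 in WT and 0.90, 0.64 and 0.51 in KO. Suz12 was at 0.22, 0.38 and 0.35 in WT and 1.08, 0.36 and 0.39 in KO, so that clone 1 stood apart while clone 2 lay inside or just above the WT range. Clone 1 also stood above the WT range for Pcgf6, at 0.38 against -0.15, 0.21 and 0.01 in WT, while clone 2 gave -0.16 and -0.65. Ring1 was spread from -0.48 to 0.48 in WT and from -1.21 to 0.09 in KO, and Kdm2b from -0.04 to 0.42 in WT and from 0.17 to 0.28 in KO. Exact permutation p-values for these 7 genes, Rnf2 included, were 0.2 to 0.9.

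For the ratio of low polysome to monosome 0 of 9 genes were called by limma and by edgeR. Of all genes limma called 2.31% higher and 2.39% lower. The smallest unadjusted p of the 9 in limma, 0.00350, was again that of Jarid2. Jarid2 was at 0.27, 0.11 and 0.60 in WT and 0.98, 1.06 and 0.85 in KO, without overlap (exact permutation p = 0.1, two-sided, the smallest possible). It was the single member with separate gradients here, as in 12.8% of all genes every KO gradient lay above WT. The limma effect was 0.64 (SE 0.19, adjusted p = 0.0615), and it stayed at 0.60 with the trend on coding length removed (adjusted p = 0.0614). DESeq2 called it (0.63, adjusted p = 0.0283), as did the gradient block (0.63, limma adjusted p = 0.0396) and the fit without WT gradient 3 (0.77, limma adjusted p = 0.0410). The other 8 effects ran from -0.35 for Kdm2b to 0.28 for Ring1.

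**Figure D3:**
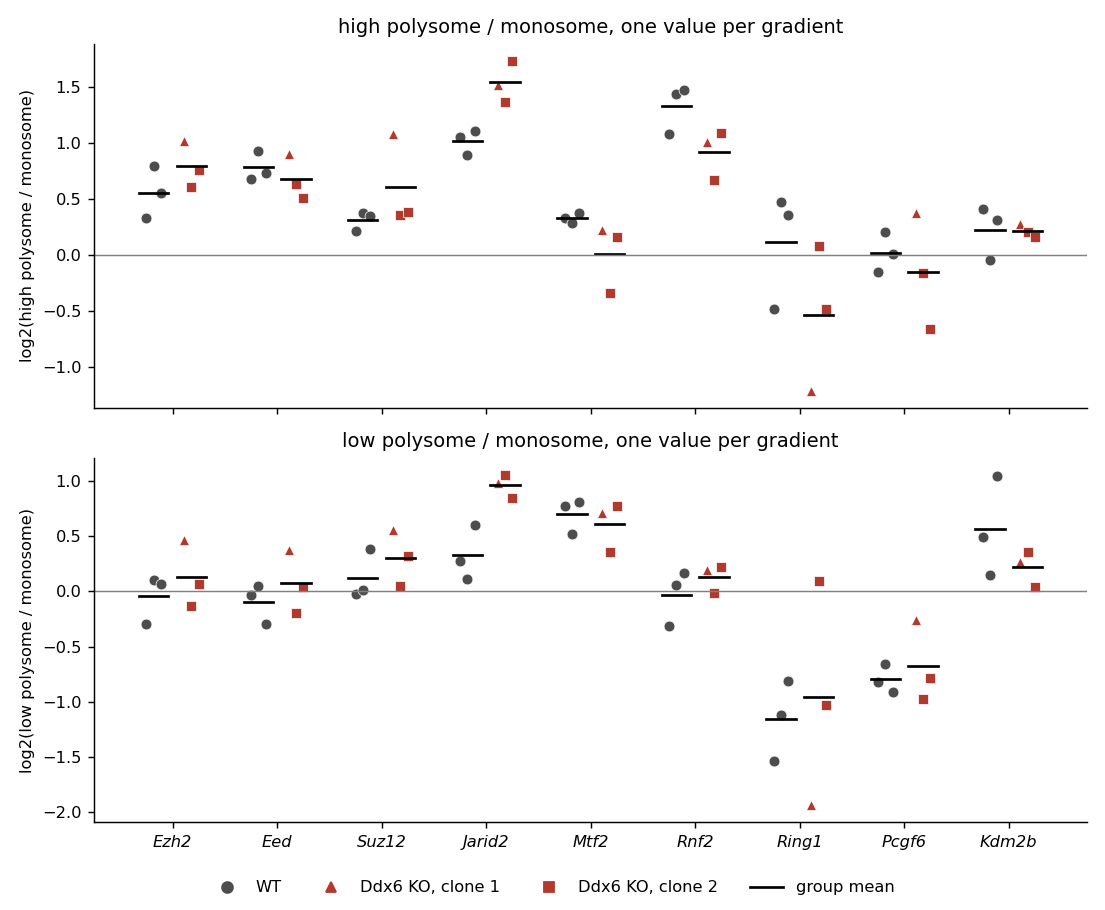
Log2 ratio of high polysome to monosome (top) and of low polysome to monosome (bottom) in each gradient, for WT (circles), KO clone 1 (triangles) and KO clone 2 (squares), with bars at the group means. Jarid2 is the gene whose KO gradients lie above all WT gradients in both ratios, at means of 1.55 against 1.02 and 0.96 against 0.33.

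Some other genes of the Polycomb machinery did change their translation level. Of 40 other subunits, partners and H2A deubiquitinase genes 39 passed the filter, and only Asxl3 did not, with at most 7 counts in a library. Translation level rose in 9 of the 39 and fell in 4, where 10.7% and 7.09% of all genes did, with a median effect of 0.19 against 0.022. The count of rises was 2 without KO gradient 3, 3 without WT gradient 1, 4 without WT gradient 2 or KO gradient 2, and 4 with the coding length trend removed. The count of falls was 1 without KO gradient 3 or WT gradient 2. No test compared this list with the 9 genes.

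Auts2, a partner of variant PRC1, rose most and kept its call under all 14 alternatives. Its high polysome level was 30.4 ± 5.87 CPM in WT and 56.5 ± 5.40 CPM in KO (mean ± SD, n = 3), and its effect 1.41 (SE 0.26, limma adjusted p = 0.00138). Phc3, a Polyhomeotic subunit of canonical PRC1, rose by 1.17 (SE 0.29, limma adjusted p = 0.00906), and by 0.88 without KO gradient 3 (limma adjusted p = 0.0934). With the coding length trend removed Phc3 was at 0.77 (limma adjusted p = 0.0942).

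Mga, a DNA-binding partner of PCGF6, rose by 1.01 (SE 0.32, limma adjusted p = 0.0360). It kept the call under 6 of 14 alternatives, and omitting any gradient but WT gradient 3 ended it (0.83 to 1.18, limma adjusted p = 0.0509 to 0.158). With the coding length trend removed Mga, whose coding sequence is 9126 nt long, was at 0.37 (limma adjusted p = 0.366). Phc3 and Mga hold the seed matches shown above, while Foxk1, which also holds one, was at 0.39 (SE 0.28, limma adjusted p = 0.359). Auts2, with the largest rise, held no 8mer or 7mer. Lcor, whose rise lay between those of Phc3 and Mga, and Fbrs, at 0.97, were also called higher and held none. Lcor kept its call under 10 of 14 alternatives and Fbrs under 9. Some genes with a 7mer only were called higher, while others, such as Pcgf5 and Asxl2 with 5 and 4 of them, were not called. A link between matches and translation level was not tested. The largest falls past the threshold were in Phc2, a paralog of Phc3, at -1.08 (SE 0.28, limma adjusted p = 0.0125) and in Pcgf3, a variant PRC1 subunit, at -0.94 (SE 0.19, limma adjusted p = 0.00251). The lowest effect of the list, -1.42, was not called. Pcgf3 held under all 14 alternatives (-0.59, limma adjusted p = 0.046, with the coding length trend removed), and Phc2 was lost without WT gradient 2 (-1.05, limma adjusted p = 0.0605) or KO gradient 3 (-1.03, limma adjusted p = 0.0682).

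In abundance over all fractions, 12 of the 39 genes were higher in KO and 8 lower, where 30.6% and 31.5% of all genes were, so that the share higher is near the background. Rbbp7, a histone-binding subunit of PRC2, rose by 0.79 (SE 0.070, limma adjusted p = 6.07e-09), and its high polysome level went from 148 ± 12.5 to 311 ± 14.2 CPM (mean ± SD, n = 3). Its translation level was also called higher, at 0.76, and under 13 of 14 alternatives. Without WT gradient 1 it was 0.58 (limma adjusted p = 0.0715). Rbbp7 was the single gene of the list with a changed low polysome ratio (0.68, SE 0.18, limma adjusted p = 0.0331), a call lost under 9 of 14 alternatives.

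Asxl2, a cofactor of the deubiquitinase BAP1, fell most, by 0.80 on the log2 scale (SE 0.12, limma adjusted p = 8.64e-06). The PRC2 accessory genes Phf19 and Aebp2 changed by -0.61 (SE 0.20, limma adjusted p = 0.0114) and -0.52 (SE 0.11, limma adjusted p = 0.000352), and Phf1, a paralog of Phf19 and Mtf2, by 0.56 (SE 0.12, limma adjusted p = 0.000552). The abundance calls of Rbbp7, Asxl2, Phf19, Aebp2 and Phf1 held under all 14 alternatives.

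**Figure D4:**
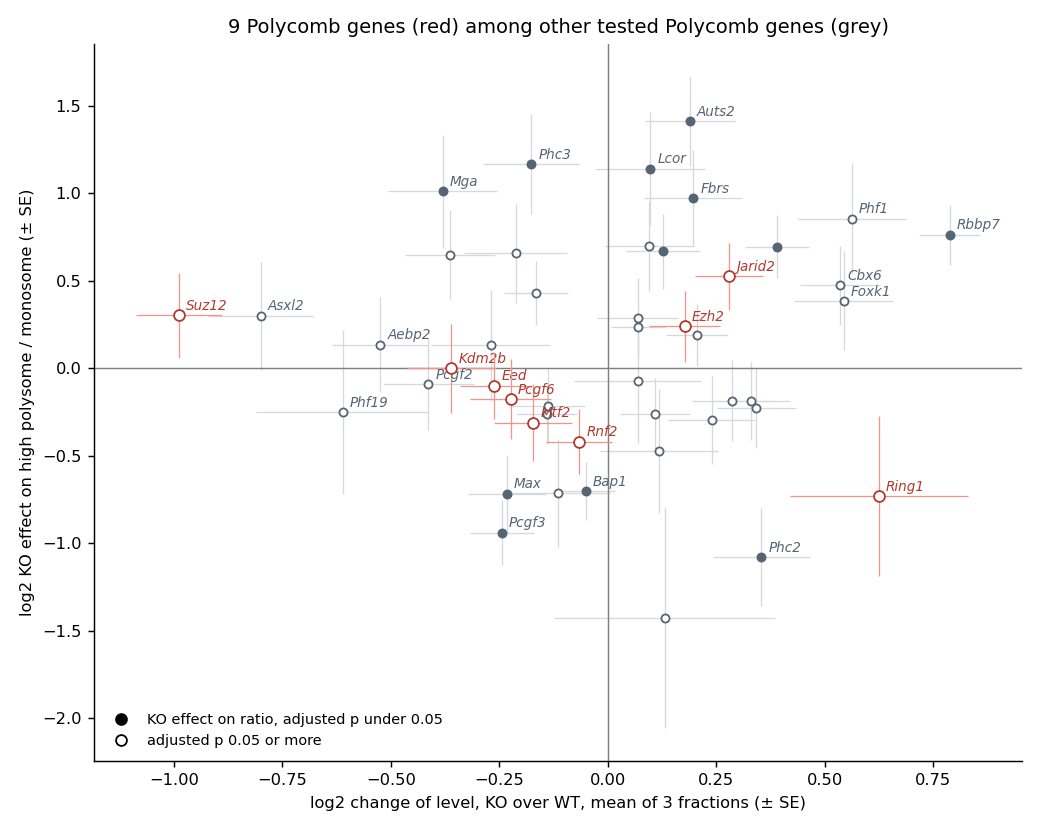
KO effect on the log2 ratio of high polysome to monosome (vertical) against the log2 change of level over all fractions (horizontal), each with its standard error from limma, for the 9 genes (red) and other Polycomb genes (grey). Filled points have an adjusted p under 0.05 for the vertical value; all 9 red points are open, while Auts2 at 1.41 and Pcgf3 at -0.94 are among the filled grey points. Both values come from the same libraries and are not independent.

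The enzymes that remove H3K27 methylation were both measured. Kdm6b was lower in KO over all fractions (-0.42, SE 0.11, limma adjusted p = 0.00208), at 78.1 ± 2.78 CPM in the WT monosome and 53.0 ± 17.2 CPM in the KO monosome (mean ± SD, n = 3). Kdm6a changed by -0.14 in abundance (SE 0.11, limma adjusted p = 0.274). Its translation level rose by 0.89 (SE 0.28, limma adjusted p = 0.0357), a call lost under 8 of 14 alternatives, among them the omission of WT gradient 1 or 2 or KO gradient 2 or 3 (0.65 to 0.85, limma adjusted p = 0.111 to 0.162). With the coding length trend removed it was 0.42 (limma adjusted p = 0.347).

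Of 30 genes on a list of developmental Polycomb targets, 13 passed the filter and 17 were too scarce to test. Not all were silent in WT, where Tbx3 was at 143 to 257 CPM, Cdkn2a at 34.2 to 175 CPM and Olig2 at 25.0 to 98.0 CPM. Over all fractions 5 of the 13 were lower in KO and 3 higher, where 31.5% and 30.6% of all genes were, and the median was -0.24 against -0.021 for all genes. Olig2, a neural transcription factor, changed by -2.27 (SE 0.12, limma adjusted p = 4.79e-12), with monosome levels of 85.9 ± 13.1 CPM in WT and 12.9 ± 2.72 CPM in KO (mean ± SD, n = 3). Isl1 (-1.98, SE 0.30, limma adjusted p = 8.54e-06), Gsc (-1.49, SE 0.26, limma adjusted p = 4.55e-05) and Hoxd13 (-0.96, SE 0.20, limma adjusted p = 0.000263) also fell, from low levels. Markers of primed epiblast fell in the same libraries, and the part of cell state in these changes was not tested.

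Tbx3, a transcription factor that ESCs express, rose by 0.93 (SE 0.062, limma adjusted p = 9.39e-11). Its translation level also rose by 1.37 (SE 0.15, limma adjusted p = 2.81e-05), as its high polysome level went from 155 ± 13.5 to 464 ± 19.1 CPM (mean ± SD, n = 3). Cdkn1c, a cyclin-dependent kinase inhibitor, had the largest fitted rise, 2.07 (SE 0.72, limma adjusted p = 0.0166), a call that ended when WT gradient 1, 2 or 3 was omitted (1.97, 2.16 and 2.06, limma adjusted p = 0.0657, 0.0578 and 0.0626). Without KO gradient 1 the rise was 1.20 (limma adjusted p = 9.41e-05). Its KO high polysome levels reached from 7.37 to 79.7 CPM. Cdkn2a, which encodes p16 and p19ARF, lost translation level by 1.09 (SE 0.27, limma adjusted p = 0.00866), and by 0.59 with the coding length trend removed (limma adjusted p = 0.184).

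Over the 18 libraries, the expression profile nearest to each member was found by Pearson's r of log2 CPM among tested genes with at least 10 CPM. Jarid2 ran with Zmpste24 (r = 0.986), Rnf2 with Ywhab (r = 0.986), Eed with Ahsa1 (r = 0.976), Pcgf6 with Slc7a6os (r = 0.969), Ezh2 with Htatsf1 (r = 0.964) and Suz12 with Vcan (r = 0.960). Mtf2 ran with Ago3 (r = 0.934), Ring1 with Sgta (r = 0.875) and Kdm2b with Map6 (r = 0.840). The 18 values share fractions, genotypes and gradients, and each pair was picked as the highest of many, so that these are descriptions. No member had another of the 9 as its nearest gene.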

How the data were processed

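RNA of each gradient fraction was made into 3′ end libraries by the authors (QuantSeq 3′ FWD kit). Per the labels and the file headers, reads were trimmed with cutadapt 1.14 and aligned with STAR 2.5.3a to mm10, and unique alignments were counted by strand with featureCounts 1.5.3 on Gencode M14 basic. The deposited values are whole read counts per gene, for 51467 genes and 92 spike-in sequences, not normalised. The kit's reads carried no molecular identifiers in the sources used here, so that PCR copies may be among them. Unique alignment removes reads shared with near-identical copies.

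Symbols, coordinates and coding lengths came from Gencode M21 on the same assembly, which matched 51274 identifiers and 99.99% of the counts. Spike-ins, with 28 to 169 counts per library, were left out of sizes and tests. Following the study's methods, genes with 3 CPM in 3 libraries were kept (12705 genes, 99.6% of counts) and fitted in limma 3.58.1 with an interaction term. TMM scaling (edgeR 4.0.16), voom and the joint fit of 6 group means were chosen here. A gene was called at p under 0.05, two-sided, after Benjamini-Hochberg adjustment across the 12705 genes. Ratios of single gradients were log2 of CPM plus 0.5, compared by exact permutation tests. A simulation with 200 changed genes recovered 98 of 100 changes of 2 on the log2 scale and made 8 false calls among 12505 unchanged genes. Alternatives were DESeq2 (1.42.0) and its size factors, edgeR's quasi-likelihood test, library size alone, no filter, only the compared groups, a replicate block, the coding length trend removed and each gradient left out.

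The members and gene lists were chosen with earlier results of these data known. The text names all 9 members, at most the 5 largest rises and 5 largest falls of each list past the threshold, and the nearest profile of each member. Rbbp7, named for its abundance, is also given with its translation level. Of the other Polycomb genes 1 is counted but not reported here, nor plotted. Fractions with the same number come from the same gradient, as the protocol collects all 3 from each sample, and their deviations from the group means correlated weakly (median r 0.074, lowest -0.16, 18 pairs). WT and KO share only a number (median r 0.033, lowest -0.45, 9 pairs).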

Additional observations from a re-analysis of the deposited data

Results flagged for a closer look

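Clone 1 and the mean of clone 2 lay on opposite sides of the WT libraries for some values, and no such difference was tested, since clone 1 has a single gradient. The Ezh2 level in the monosome was 113 CPM in clone 1 and 139 CPM on average in clone 2, with WT at 122 to 132 CPM. The log2 translation level of Pcgf6 less the WT mean was 0.35 in clone 1 and -0.43 on average in clone 2. For Ring1, which has few counts, the log2 ratio of low polysome to monosome was -1.94 in clone 1, with WT at -1.54 to -0.81. In clone 2 this ratio was -0.46 on average, from gradients at 0.10 and -1.02.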

How the results depend on the processing

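No called log2 change of a member changed sign under the 14 alternatives, while 20 of the 49 changes that were not called did under at least 1. Of 1008 such values 937 kept their side of the threshold, 34 lost it and 37 gained it. For the KO effect on translation level the count of called members was 0 and became 1 with the replicate block, which blocks on the gradient. For the low polysome ratio it was 0 and became 1 with DESeq2 and 1 with the replicate block, and 0 to 1 when single gradients were left out. Left-out gradients gave 2 to 4 calls, against 4, for the WT low polysome over monosome, 2 to 4, against 4, for KO in the low polysome, and 1 to 5, against 4, for KO in the high polysome. The last count was 6 with DESeq2 size factors, with library size alone and with DESeq2, which each added Mtf2 and Pcgf6. For KO in the monosome the count was 1, with 1 to 2 when gradients were left out and 2 with edgeR. The replicate block gave 7 calls, against 6, over all fractions and 5, against 4, for WT high polysome over monosome. Between genotypes this block rests on a shared number only. The cause of these shifts was not tested. All 27 settings of the single gradient ratios (pseudocounts of 0.1 and 2 CPM, library size alone) stayed within the replicate spread. The median effect of all genes on translation level was 0.022 with TMM, -0.031 with DESeq2 size factors, -0.10 with library size alone and 0.26 without the filter. Depth limits Ring1, at 11 to 78 counts per library, and WT gradient 1 has the shallowest library.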
